A study of Bos taurus with 5 samples.

Results

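Myoglobin (MB, ENSBTAG00000005333) and muscle creatine kinase (CKM, ENSBTAG00000013921) were described across 5 RNA sequencing libraries of longissimus dorsi, the muscle that runs along the spine. The members were taken by gene symbol from a table of 13391 transcripts of 9022 genes, which held 1 transcript for each, so that 2 transcripts of 2 genes make up the set. Both genes had been chosen by their measured levels and spread in these same libraries, so their values are given as descriptions without a test. The libraries came from 5 Jiaxian Red cattle, a native breed, aged 18 months, with 1 library for each animal, numbered as in the labels. They formed 1 group with no treatment, genotype or time contrast. With 1 library per animal, the animal, the piece of muscle and the library preparation cannot be told apart.

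Myoglobin is the haem protein that binds oxygen inside muscle fibres. It is most abundant in slow and oxidative fibres, and the chemical state of its haem iron gives fresh beef its colour. The muscle creatine kinase subunit is a cytosolic enzyme that transfers phosphate between creatine and ADP. It rebuilds ATP close to the myosin motors and the calcium pumps, and part of it is bound at the M line, the middle of the sarcomere. In muscle it works with a mitochondrial creatine kinase that charges creatine at the site of respiration. The CKM gene is a classic target of MyoD and MEF2 family factors in mice.

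The values were FPKM, fragments scaled to transcript length and to the mapped fragments of the library, as the authors deposited them. FPKM corrects for length, so levels of different genes are set side by side on that scale. The summed FPKM was lowest in library 1, at 193706, and highest in library 4, at 223251. Read depth is unknown because no counts were given. The median Spearman rho of a library with the other 4, over the 6136 genes that averaged at least 1 FPKM, lay between 0.908 and 0.921, and was highest for library 5. These genes are called detected below. The labelled tissue was checked against the defining genes of skeletal fibres, of which 6 of 8 were listed. Their summed level was between 18103 and 21698 FPKM, and ACTA1, the skeletal actin, averaged 5134 ± 463 FPKM (SD, n = 5).

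MB was an abundant transcript whose level was far higher in 1 animal than in the other 4. Libraries 1 to 5 had 106, 133, 153, 214 and 766 FPKM of MB. Library 5 thus stood alone at the top, 3.57-fold above the next library and 5.06-fold above the mean of the other 4. The mean over all animals was 275 ± 278 FPKM (SD, n = 5), with a median of 153 and a 7.24-fold range. Without library 5 the mean was 152 ± 46.2 FPKM (SD, n = 4) and the range was 2.02-fold. MB made up 0.0547% of the summed FPKM in library 1 and 0.372% in library 5.

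CKM was far lower than MB, and its order between animals was nearly the reverse. Libraries 1 to 5 had 35.5, 14.9, 18.5, 9.67 and 2.499 FPKM of CKM. The highest value was in library 1, 1.92-fold above the next, and the lowest in library 5, which lay 3.87-fold below the next. CKM averaged 16.2 ± 12.3 FPKM (SD, n = 5), with a median of 14.9 and a 14.2-fold range. Without library 5 the mean was 19.6 ± 11.2 FPKM and the range 3.67-fold, and without library 1 the mean was 11.4 ± 6.93 FPKM (SD, n = 4). In a whole-tissue sample, fewer cells of a type and less RNA per cell cannot be told apart.

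**Figure D1:**
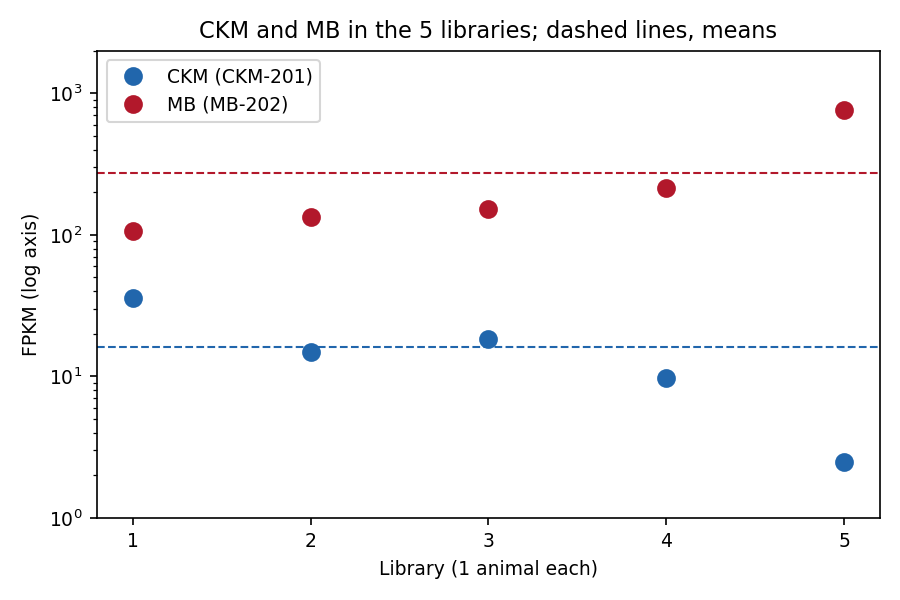
FPKM of CKM and MB on a log axis in each of the 5 libraries, with 1 point per library and dashed lines at the means of 16.2 and 275 FPKM. MB is highest in library 5, at 766 FPKM, where CKM is lowest, at 2.499 FPKM.

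CKM lay below MB in 5 of 5 animals, but the distance between them differed greatly. The CKM level was 33.5%, 11.2%, 12.1%, 4.51% and 0.326% of that of MB in libraries 1 to 5. The CKM over MB ratio therefore spanned 103-fold across the animals, and 7.43-fold across libraries 1 to 4. On the log2(FPKM + 1) scale this ratio was -1.55, -3.08, -2.99, -4.33 and -7.78 in libraries 1 to 5, a mean of -3.94 ± 2.36 (SD, n = 5). Of the 10 pairs that the 5 libraries make, 9 ordered CKM and MB in opposite directions. The exception was the pair of libraries 2 and 3, where both genes were higher in library 3. The summed FPKM of the skeletal muscle markers was 18103, 19082, 20652, 21698 and 20110 in libraries 1 to 5, and the part of fibre content in the CKM and MB values was not tested.

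Each gene was represented by a single listed transcript, which bears on what the levels cover. MB-202 (ENSBTAT00000084629) lay on chromosome 5 from 73814162 to 73829888 and CKM-201 (ENSBTAT00000081515) on chromosome 18 from 52956472 to 52966223, in the coordinates of the table. These intervals cover 15727 and 9752 bases of genome, introns included. The submitters' processing notes name the build UMD3.1, but 99.6% of 7423 genes matched by symbol, CKM and MB among them, overlapped their positions in a RefSeq gene table of ARS-UCD2.0, so no build is claimed. The MB numbering starts at 202, and a transcript numbered 201 was not analysed here. The MB level is thus that of MB-202 and may not be the whole output of the gene. CKM was listed as 201 alone, and the absence of a higher number would not show as a gap. The CKM level is that of CKM-201 and may likewise not be the whole output. A number was missing somewhere below the highest listed one in 2632 of 7579 genes with numbered transcripts (34.7%). That count is wider than genes lacking 201. How an estimate per transcript shares fragments with transcripts not analysed here was not tested.

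No other listed gene overlapped the interval of MB or of CKM. The nearest listed neighbours with a symbol did not share their profiles. MCM5, a subunit of the replication helicase, ended 162301 bases before MB, was listed at 0 in library 2 and had its maximum, 2.34 FPKM, in library 4. RBFOX2, a splicing regulator, started 69555 bases after MB and averaged 62.4 ± 8.33 FPKM (SD, n = 5), with 65.6 FPKM in library 5. MARK4, a microtubule affinity kinase, ended 3771 bases before CKM and averaged 1.21 ± 0.222 FPKM, highest in library 5 at 1.55. FOSB, an immediate-early transcription factor, started 108664 bases after CKM and had 9.50, 1.73, 2.54, 3.02 and 4.54 FPKM in libraries 1 to 5. FOSB was highest in library 1, as CKM was, but library 5 ranked next.

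By mean level MB ranked 66 of the 6136 detected genes and CKM ranked 1386. MB stood above 98.9% of them and CKM above 77.4%. These places are those of MB-202 and CKM-201 and may not reflect the whole output of either gene. Close to MB were MYOM1, the M-line protein myomesin, at 288 ± 31.3 FPKM and ATP5MD, a small subunit of ATP synthase, at 280 ± 86.7 FPKM above it. The ribosomal protein gene RPL9, at 265 ± 84.4 FPKM, lay a little below it (SD, n = 5). None of these genes differs from MB beyond its spread of 278 FPKM. Around CKM stood genes that are not special to muscle. They were ZNF358, a zinc finger gene, at 16.2 ± 2.97 FPKM and RTCA, an RNA phosphate cyclase, at 16.2 ± 2.74 FPKM above it. INPP5A, an inositol phosphatase, at 16.2 ± 1.41 FPKM and PDE8A, a phosphodiesterase, at 16.2 ± 3.84 FPKM lay below it (SD, n = 5).

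The spread of both genes between animals was large for their levels. The SD of log2(FPKM + 1) was 1.12 for MB and 1.26 for CKM, against a median of 0.25 over the detected genes and a 90th percentile of 0.63. It exceeded that of 97.3% of detected genes for MB and 98.0% for CKM. Among the 216 genes with a mean of at least 100 FPKM, MB had the third greatest SD. The 2 genes above it, named after their values were seen, were COX6A2, a muscle subunit of cytochrome c oxidase, and VDAC3, a channel of the outer mitochondrial membrane. COX6A2 had 18.6, 186, 283, 423 and 129 FPKM in libraries 1 to 5, and VDAC3 had 13.7, 56.3, 195, 193 and 67.2 FPKM. Both were lowest in library 1, as MB was, but neither was highest in library 5. Among the 2172 genes with a mean of at least 10 FPKM, CKM ranked 32 and MB 40 by SD.

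**Figure D2:**
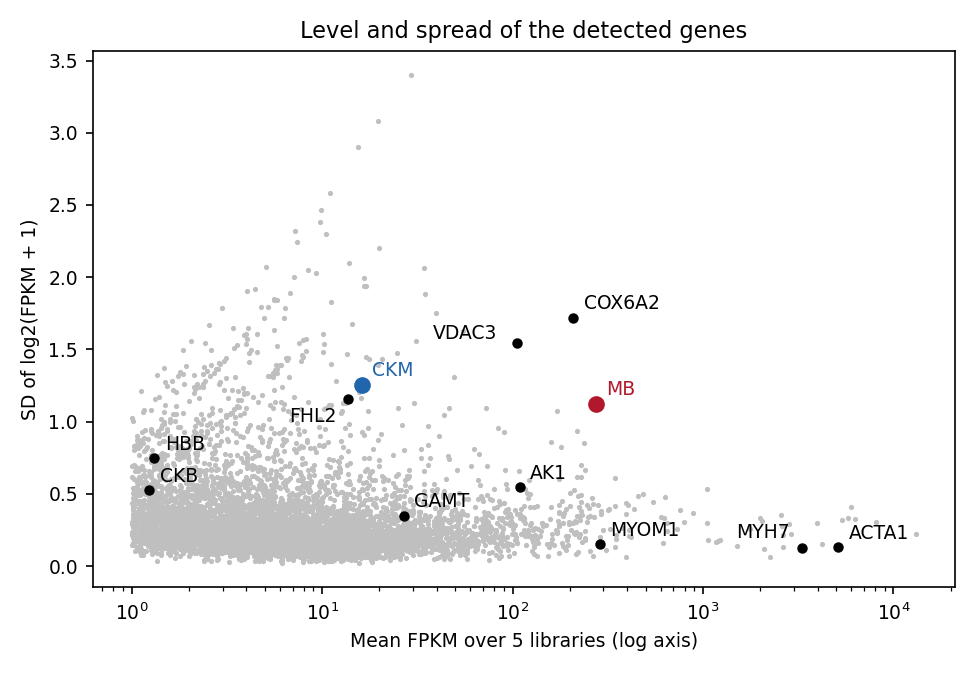
Mean FPKM on a log axis against the SD of log2(FPKM + 1) for each of the 6136 detected genes over 5 libraries, grey, with named genes marked. MB (1.12) and CKM (1.26) lie far above the median SD of 0.25, whereas ACTA1, MYH7 and MYOM1 lie below it.

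The profile of each gene was set against the background of all detected genes, which is a description because the pattern had been seen when the members were chosen. Library 5 exceeded every other library by at least the 3.57-fold of MB in 11 of 6136 genes (0.179%). It lay below every other library by at least the 3.87-fold of CKM in 72 genes (1.17%). Library 5 was the highest in 17.2% of detected genes and the lowest in 15.4%, and library 1 was the highest in 24.4% and the lowest in 26.5%. A range between the highest and lowest library as wide as that of MB was met in 7.74% of genes, and one as wide as that of CKM in 5.41%. Both shares, like the count of 72 genes, were taken on FPKM with no pseudocount. They include genes listed at 0 in their lowest library, which meet any such limit. The order of the 5 libraries was the same as in MB in 81 genes (1.32%) and the same as in CKM in 64 genes (1.04%), each count including the gene itself. In 6.76% of detected genes the outermost library was separated from its nearest neighbour by more than 0.71 of the whole range in FPKM, as in MB (0.836) but not in CKM (0.516).

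Of the creatine kinase family 2 of 6 symbols were listed, CKM and CKB. CKB, the brain-type subunit, had 2.35, 0.524, 0.945, 1.87 and 0.508 FPKM in libraries 1 to 5. It was highest in library 1 and lowest in library 5, as CKM was, with a 4.62-fold range and a mean of 1.24 ± 0.830 FPKM (SD, n = 5). The mitochondrial forms, CKMT2 among them, were not analysed here, so the phosphocreatine shuttle cannot be followed to its mitochondrial end. GAMT, the methyltransferase that completes creatine synthesis, was the 1 listed gene of 3 for creatine supply. GAMT had 26.2, 25.1, 20.6, 39.7 and 22.8 FPKM in libraries 1 to 5, a mean of 26.9 ± 7.48 (SD, n = 5). It was highest in library 4 and followed neither MB nor CKM.

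Adenylate energy transfer, the other fast route to ATP, was represented by 2 of 11 symbols. AK1, the cytosolic adenylate kinase of muscle, had 66.5, 90.5, 104, 189 and 95.2 FPKM in libraries 1 to 5. AK1 was lowest in library 1, where CKM was highest, and its mean of 109 ± 46.8 FPKM exceeded that of CKM. The CKM mean is that of CKM-201 alone and may not be the whole output of the gene. ADSSL1, the muscle adenylosuccinate synthase of the purine nucleotide cycle, averaged 5.93 ± 2.68 FPKM and was lowest in library 3, at 2.29 FPKM (SD, n = 5).

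Users of the ATP that creatine kinase restores varied little between animals. MYH7, the slow myosin heavy chain, averaged 3329 ± 276 FPKM, ATP2A2, the slow calcium pump of the sarcoplasmic reticulum, 1177 ± 133 FPKM, and ATP1B1, a sodium pump subunit, 182 ± 20.5 FPKM (SD, n = 5). Their ranges lay between 1.22-fold and 1.32-fold.

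At the M line, where part of the CKM protein is bound, 7 of 9 genes were listed and all 7 were detected. MYOM1 averaged 288 ± 31.3 FPKM, its relative MYOM2 241 ± 32.1 FPKM and TRIM63, a ubiquitin ligase of the same structure, 100 ± 16.6 FPKM (SD, n = 5). Their ranges were 1.30-fold, 1.43-fold and 1.60-fold, against 14.2-fold for CKM. FHL2, a LIM domain adaptor reported at the sarcomere, had 10.2, 2.29, 12.1, 14.8 and 28.7 FPKM in libraries 1 to 5. It was the 1 M-line gene highest in library 5, as MB was, but was lowest in library 2. Library 5 was the highest in 17.2% of all detected genes. OBSL1, an obscurin relative, averaged 10.3 ± 5.35 FPKM and was lowest in library 3, at 1.56 FPKM. The median SD of log2 for the 7 genes was 0.25, close to that over all detected genes.

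Of the globins, the family of MB, 2 of 12 symbols were listed. HBB, the beta chain of haemoglobin, had 1.98, 0.253, 3.09, 0.937 and 0.305 FPKM in libraries 1 to 5. It was highest in library 3, and low in libraries 2 and 5, while MB was highest in library 5. HBB was also the 1 listed gene of the 6 erythroid markers, so the red cell content rests on that gene alone.

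Haem synthesis and breakdown was covered by 9 of 14 symbols, of which 7 were detected. ALAD, which condenses aminolevulinic acid early in haem synthesis, had 21.8, 27.8, 29.1, 32.3 and 32.8 FPKM in libraries 1 to 5. This is the same order of libraries as in MB, over a 1.502-fold range, and libraries 4 and 5 barely differ. UROD, a later enzyme of the pathway, had 14.6, 19.4, 20.7, 23.4 and 23.4 FPKM and was lowest in library 1 as well. FECH, which inserts the iron, averaged 12.1 ± 2.18 FPKM and had 13.4 FPKM in library 5. BLVRA, a biliverdin reductase, averaged 6.25 ± 1.997 FPKM and UROS, another synthesis enzyme, 2.17 ± 0.867 FPKM (SD, n = 5); both were lowest in library 1. Of the 7 detected genes 4 were lowest in library 1 and 1 was highest in library 5. Over all detected genes these shares were 26.5% and 17.2%. For the 7 genes the median difference between library 5 and the mean of the others was 0.14 on the log2 scale. Over all detected genes it was 0.02, and the difference for MB was 2.38.

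The detected iron handling genes varied less than MB. FTH1, the ferritin heavy chain that stores iron, had 225, 228, 298, 187 and 338 FPKM in libraries 1 to 5, highest in library 5. TFRC, the transferrin receptor that brings iron in, averaged 143 ± 29.8 FPKM and was highest in library 4. SLC40A1, the iron exporter ferroportin, averaged 27.2 ± 6.39 FPKM and was highest in library 5, at 34.6 FPKM (SD, n = 5). Of 10 symbols 7 were listed and 6 detected. Library 5 was highest in 3 of these 6, against 17.2% of all detected genes. For the 6 genes the median difference between library 5 and the others was 0.21 on the log2 scale.

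Enzymes that return oxidised myoglobin to its oxygen-binding form matter for meat colour, and of their 2 detected genes 1 was highest and 1 lowest in library 5. Over all detected genes these shares were 17.2% and 15.4%. CYB5R3, the cytochrome b5 reductase, averaged 36.7 ± 3.84 FPKM over a 1.27-fold range and was highest in library 5, at 40.1 FPKM. LDHB, a lactate dehydrogenase subunit that supplies NADH in meat, averaged 198 ± 40.4 FPKM (SD, n = 5) and was lowest in library 5, at 147 FPKM. CYB5B, a cytochrome b5, stayed under 1 FPKM in every library. Of 5 symbols 4 were listed and 2 detected.

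The detected regulators of oxygen response and of muscle promoters had median SDs of log2 of 0.31 and 0.37, against 0.25 over all detected genes. TEAD4 had the greatest SD of log2 (1.33), above those of CKM and MB, and PPARGC1A had an 11.02-fold range, wider than that of MB. HIF1A, the oxygen-sensitive factor, averaged 7.59 ± 0.667 FPKM and ARNT, its partner, 12.5 ± 1.75 FPKM (SD, n = 5). VEGFA, the angiogenic growth factor, had 43.6 FPKM in library 1 and between 17.5 and 25.8 FPKM in the others. EGLN2, an oxygen-sensing prolyl hydroxylase, averaged 2.48 ± 0.872 FPKM, and 4 of 9 symbols of this list were listed. Among regulators of muscle promoters 23 of 28 symbols were listed and 18 detected. TEAD1 and MEF2C, factors that bind muscle promoters, averaged 66.0 ± 8.10 and 65.4 ± 10.2 FPKM, and PPP3CA, the calcineurin catalytic subunit, 34.3 ± 4.39 FPKM (SD, n = 5).

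Over the 18 detected regulators, library 5 was the highest in 4 and the lowest in 5, with a median difference from the others of 0.04 on the log2 scale. Library 5 was the highest in 17.2% of all detected genes and the lowest in 15.4%. PPARGC1A, a coactivator of oxidative metabolism, was at 3.48, 3.47, 1.38, 1.25 and 0.316 FPKM in libraries 1 to 5. Like CKM it was highest in library 1 and lowest in library 5, while MB ran the other way. PPP3CA, at 39.5 and 28.4 FPKM in these libraries, and NFATC1, at 5.20 and 2.24 FPKM, were highest and lowest there too. Library 1 was the highest in 6 of the 18 regulators and the lowest in 4. Over all detected genes these shares were 24.4% and 26.5%. TEAD4, a relative of TEAD1, had 6.84 FPKM in library 4 and 2.33 FPKM in library 3, and its lowest value was 0.0353 FPKM.

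**Figure D3:**
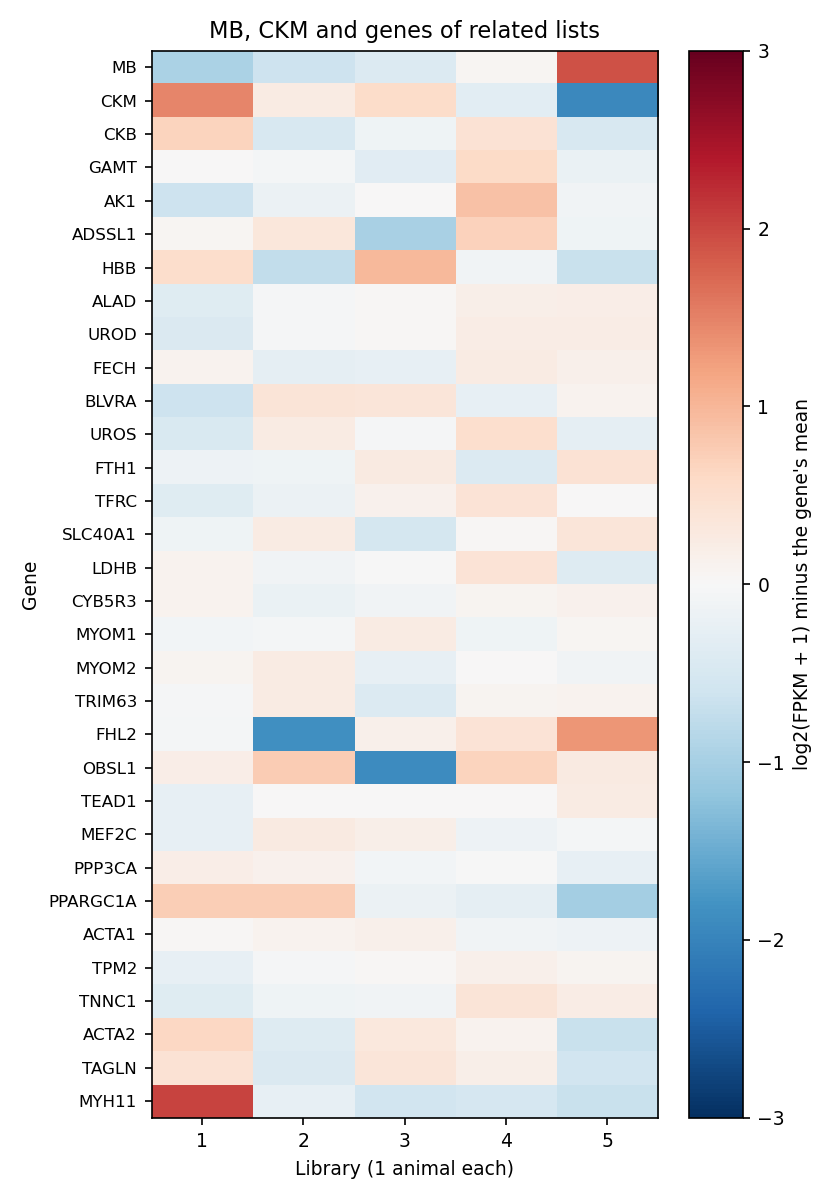
Deviation of log2(FPKM + 1) from each gene's own mean in the 5 libraries, red above and blue below, for MB, CKM and genes of the related lists. The deep colours of MB and CKM in library 5 have opposite signs, while the marker ACTA1 stays pale in every library.

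The genes with the profiles nearest to MB were named by the smallest root mean square difference of centred log2(FPKM + 1) over the 5 libraries, among 5414 detected genes with a symbol. They were JTB, a membrane protein gene (0.39), AGRN (0.46), TTC3, a ubiquitin ligase (0.50), GFOD1 (0.52) and ZBED5 (0.53), where the median over all those genes was 1.02. All 5 were low, with means between 1.67 and 7.25 FPKM, and all were highest in library 5. AGRN, which encodes agrin, the organiser of the neuromuscular junction, had 6.35 FPKM in library 5, and no other library passed 0.907 FPKM. JTB had 3.40, 3.74, 3.97, 9.38 and 15.7 FPKM in libraries 1 to 5. CKM stood at rank 5398 in this order, with a difference of 2.11.

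Among the profiles nearest to CKM were those of ZNF527, a zinc finger gene (0.31), SNAI2, a transcription factor of mesenchymal cells (0.39), PTGDS, a prostaglandin D synthase (0.41) and TBC1D14, a regulator of Rab proteins (0.46). The median difference over all genes was 1.16. ZNF527 had 12.1, 8.18, 8.45, 6.29 and 0.646 FPKM in libraries 1 to 5, so that library 5 lay far below the rest. PTGDS had 5.68, 1.11, 2.69, 1.09 and 0.127 FPKM. SNAI2 was listed at 0 in library 5, while TBC1D14 was at 0.0041 FPKM there. With 5 libraries a likeness of this kind is a description only, and it leans on library 5. Without that library 0 of the 10 genes nearest to MB and 2 of the 10 nearest to CKM were kept.

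**Figure D4:**
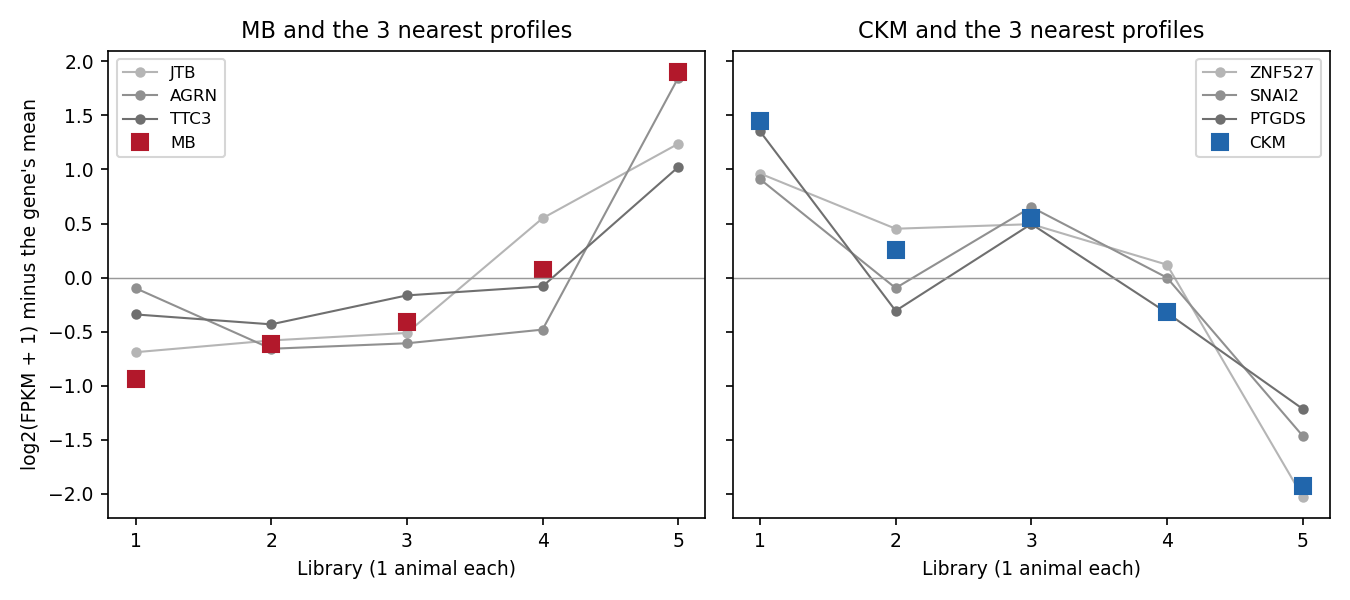
Centred log2(FPKM + 1) of MB (left) and CKM (right), squares, with the 3 genes of nearest profile, circles, in each library. Lines join the points of 1 gene and mark no order among animals. MB and its nearest genes are highest in library 5, and CKM and its nearest genes are lowest there.

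Markers of other cell types are given beside these profiles because CKM and MB are fibre genes. All 4 detected smooth muscle markers of 5 were lowest in library 5, as CKM was, and 3 of them were highest in library 1. Over all detected genes these shares were 15.4% and 24.4%. The summed level of the smooth muscle markers was 97.5 FPKM in library 1 and 42.9 FPKM in library 5. ACTA2, the smooth muscle actin, was at 50.2 and 20.1 FPKM in these libraries, TAGLN at 28.3 and 13.6 and SMTN at 11.2 and 8.88. MYH11, the smooth muscle myosin, had its maximum of 7.82 FPKM in library 1 and its minimum of 0.353 FPKM in library 5. The fibroblast markers COL3A1 and COL1A2 were highest in library 1 too, with sums between 374 and 819 FPKM over 2 of 5 listed symbols. The leukocyte gene CD74 had the same order of libraries as CKM, over a 1.69-fold range, with marker sums of that list between 123 and 208 FPKM. CD74 alone accounted for 119 to 201 FPKM of those sums. Other members there were PTPRC, at 2.65 ± 0.911 FPKM, and AIF1, at 2.24 ± 1.42 FPKM (SD, n = 5). Neither had the order of CKM. PTPRC was lowest in library 3, at 1.45 FPKM, and AIF1 was highest in library 4, at 3.75 FPKM. The part of these cells in the CKM and MB values was not tested.

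The 4 detected endothelial markers differed little, and sums over all 5 listed symbols lay between 77.9 and 90.3 FPKM. VWF, the undetected marker, had at most 0.179 FPKM, with a 23.3-fold range. CDH5 averaged 27.9 ± 3.09, EGFL7 25.5 ± 2.51, EMCN 18.6 ± 2.16 and PECAM1 13.5 ± 1.79 FPKM (SD, n = 5). The adipocyte list was represented by CIDEC, listed at 0 in library 5 and at most 0.809 FPKM elsewhere. Skeletal fibre markers varied between 1.104-fold and 1.70-fold. TPM2, the beta-tropomyosin, averaged 4203 ± 419 FPKM, TNNC1, the slow troponin C, 3976 ± 830 FPKM and MYLPF, the fast regulatory light chain, 2608 ± 501 FPKM (SD, n = 5). Library 5 was the lowest in 1 of the 6 listed markers, ACTA1, and the highest in none. Over all detected genes these shares were 15.4% and 17.2%.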

How the data were processed

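Total RNA from the muscle of 5 animals was sequenced, 3 µg going into each library preparation per the labels' protocols. The authors deposited FPKM for each listed transcript, per the file headers. Tools named by the submitters' processing notes, with no roles, are DESeq2 1.10.1 and HTSeq 0.6.0, beside the build UMD3.1; the aligner, the program behind the FPKM and the annotation release are not given in the sources used here. FPKM were summed per gene identifier, which for MB and CKM is the value of 1 transcript each. A detected gene had a mean of at least 1 FPKM, and logs were log2(FPKM + 1). Gene symbols come from the table. Genes with no row were not analysed here, and depth is unknown.

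All 5 libraries formed 1 group, and since MB, CKM and the 18 lists (151 symbols, 87 listed) were chosen with earlier results of these data known, no test was run. Likeness was the root mean square difference of centred log2 values. Named genes were MB, CKM, all listed creatine kinase, creatine supply and globin genes, the 3 highest and 2 most variable detected members of each other list, the 5 nearest profiles, the 2 genes next in level on each side and the chromosome neighbours. Some genes that this rule names are not reported here. COX6A2, VDAC3, VWF and NFATC1 were added after values had been seen. The gap ratio is the distance of the highest or lowest library to the nearest other, divided by the whole range in FPKM, with 0.71 as the limit for 5 libraries. The likeness search was tested on simulated data. Alternatives were TPM rescaling, median-ratio size factors, a pseudocount of 0.1, other detection limits, the leading transcript, each library left out, and scaling to skeletal muscle markers, which was chosen after seeing the data. Values were computed with pandas 2.3.3, numpy 2.4.6 and scipy 1.17.1 under Python 3.11.15, and plotted with matplotlib 3.10.9.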

Additional observations from a re-analysis of the deposited data

Results flagged for a closer look

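Of 73 named genes with a mean of at least 1 FPKM, 5 had a library far from the others by the gap ratio. Chance gives about 1 in 20, and 415 of all 6136 detected genes (6.76%) passed the same limit, so the count is near the background. MB had a gap ratio of 0.836, with library 5 at 766 FPKM and the other libraries between 106 and 214 FPKM; on the log2(FPKM + 1) scale its ratio was 0.645, under the limit of 0.71. AGRN had a ratio of 0.899 and TTC3 one of 0.842, both with library 5 high; these were named for likeness to MB, so they are not separate signs of an unusual library. MYH11, a smooth muscle marker, had a ratio of 0.937 with library 1 at 7.82 FPKM and the others at most 0.821 FPKM. CD74, an antigen presentation gene, had a ratio of 0.774 with library 1 at 201 FPKM and the others between 119 and 137 FPKM. CKM had a ratio of 0.516 and was under the limit.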

How the results depend on the processing

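The mean CKM over MB log2 ratio lay between -4.54 (without library 1) and -2.99 (without library 5). Its sign could not change under these alternatives, since CKM was below MB in each library and a rescaling acts on both alike. Leaving out library 5 moved MB most: its mean became 152 FPKM, its rank 149 (59 to 149 over libraries left out), its SD of log2 0.42 (0.42 to 1.30) and its SD percentile 78.0 (78.0 to 98.1). For CKM the SD of log2 ran from 0.74 without library 5 to 1.44, and the SD percentile from 92.5 to 98.6. On the TPM scale, with a fixed total per library, MB averaged 1323 and CKM 80.0, a change of unit. The SD percentile of MB was 91.4 with TPM, 92.6 with a pseudocount of 0.1 and 98.2 with no detection limit, and that of CKM 95.4, 94.4 and 98.6. Of the 10 genes nearest to MB, 3 were shared with TPM, 5 with a pseudocount of 0.1 and 0 to 5 with a library left out; for CKM these were 6, 5 and 2 to 8. The nearest genes thus depend on the setting, and none of those for MB is kept without library 5. Median-ratio size factors moved no result by more than its spread. Of 73 other named genes all moved by less than 1 SD with size factors or a library left out. Leaving out 1 of 5 values cannot move a mean by 1 SD, so that count carries no information. The size factors lay between 0.978 and 1.02, so they could move little. No paired analysis was possible because there is 1 group. Depth is unknown, so no counting limit can be given.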
